A study of Mus musculus with 38 samples.

Results

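The genes described here were 10 antioxidant genes, named by symbol and found in the count matrix by their Ensembl identifiers on GRCm39. They were the NRF2 targets Hmox1, Nqo1, Gclc, Gclm, Txnrd1 and Srxn1, the superoxide dismutases Sod1, Sod2 and Sod3, and the catalase gene Cat. All 10 matched 1 row each of the 35682 genes in the matrix. Their expression was compared between cardiomyocytes, endothelial cells (ECs) and fibroblasts of the mouse heart, and between sham-operated and infarcted hearts with and without the glucose-lowering drug empagliflozin (EMPA), an inhibitor of the sodium-glucose cotransporter SGLT2.

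NRF2, encoded by Nfe2l2, is a transcription factor that KEAP1 holds in the cytoplasm and directs to degradation. Oxidants and electrophiles modify KEAP1, after which NRF2 accumulates, pairs with small MAF proteins and binds antioxidant response elements, a site that the repressor BACH1 can also occupy. Its targets make glutathione, recycle thioredoxin, repair oxidised peroxiredoxins and break down heme and quinones. Superoxide dismutases act further upstream and turn superoxide into hydrogen peroxide, which catalase and the peroxidases remove. SOD1 works in the cytosol, SOD2 in the mitochondrial matrix and SOD3 outside the cell, and reperfusion of ischemic heart muscle is a classic source of such oxidants.

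The libraries came from male C57BL/6 mice of 8 to 12 weeks that were gavaged every day for 6 weeks with vehicle, which was 5% DMSO in saline, or with EMPA at 10 mg/kg per day in the same vehicle. Sham mice (labelled SHAM) had vehicle and an open chest without ligation. Control-AMI mice (labelled Control_IR) had vehicle, and EMPA-Pre-AMI mice (labelled EMPA_IR) had EMPA, before the left anterior descending artery was tied for 30 min and reopened for 2 h. The tissue below the suture was digested, cardiomyocytes were pelleted and not sorted, and ECs (CD45-, CD31+) and fibroblasts (CD45-, CD31-, CD90+) were sorted. Each library pooled 2 hearts. Sham, Control-AMI and EMPA-Pre-AMI had 4, 5 and 4 cardiomyocyte libraries, 4, 4 and 5 EC libraries, and 4, 4 and 4 fibroblast libraries. All 3 populations could be taken from the same hearts, but the labels do not tie them, so tests between populations treated the libraries as independent.

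The estimated counts summed to 2031716 to 4509284 per cardiomyocyte library, 1352514 to 2195308 per EC library and 1946056 to 2821373 per fibroblast library, so that 3 counts corresponded to 0.665 to 1.48, 1.37 to 2.22 and 1.06 to 1.54 CPM (a gene's counts relative to the library total, on the usual scale). Levels below are CPM scaled by the trimmed mean of M-values (TMM) within a population. On that scale 3 counts correspond to somewhat different values, which can fall outside these ranges. A change was called when its false discovery rate (FDR) from edgeR's quasi-likelihood F test, adjusted by Benjamini-Hochberg over all genes tested in that population, was below 0.05. The summed level of 10 endothelial genes was 7910 to 16662 CPM in EC libraries against 142 to 1561 in the other populations, that of 10 fibroblast genes was 16073 to 25444 CPM in fibroblasts against 203 to 7919 elsewhere, and that of 9 cardiomyocyte genes was 22304 to 50090 CPM in cardiomyocytes against 109 to 1478 elsewhere. The highest fibroblast sum outside fibroblasts was that of EC Control-AMI replicate 1. Mitochondrially encoded transcripts took 46.6% to 66.01% of cardiomyocyte counts, 4.52% to 14.6% of EC counts and 3.47% to 12.5% of fibroblast counts. In these bulk libraries, fewer cells of a type and less RNA per cell cannot be told apart.

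The sequences before the transcription starts of 4 of the NRF2 targets are shown because 3 of them were called in ECs and Gclm makes the same ligase as Gclc, and because they differ in the elements they hold. Each is the 300 bases upstream of the canonical transcript on GRCm39, read 5′ to 3′ on the strand of the gene, with matches in capitals. The core of the antioxidant response element was searched as TGACNNNGC and as TGAGNNNGC, and the AP-1 site as TGACTCA, on both strands. Txnrd1 lies at chr10:82694713-82695012, Srxn1 at chr2:151947144-151947443, Gclm at chr3:122038826-122039125 and Gclc at chr9:77661497-77661796. The Txnrd1, Srxn1 and Gclm windows overlap annotated long noncoding RNAs on the opposite strand, and the Txnrd1 window lies within the gene record, before its canonical transcript.
Txnrd1: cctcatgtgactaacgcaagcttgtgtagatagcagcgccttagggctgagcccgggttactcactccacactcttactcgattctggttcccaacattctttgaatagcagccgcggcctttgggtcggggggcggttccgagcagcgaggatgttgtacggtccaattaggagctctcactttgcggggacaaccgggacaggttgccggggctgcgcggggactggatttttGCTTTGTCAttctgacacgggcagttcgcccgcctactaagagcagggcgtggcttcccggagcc
Srxn1: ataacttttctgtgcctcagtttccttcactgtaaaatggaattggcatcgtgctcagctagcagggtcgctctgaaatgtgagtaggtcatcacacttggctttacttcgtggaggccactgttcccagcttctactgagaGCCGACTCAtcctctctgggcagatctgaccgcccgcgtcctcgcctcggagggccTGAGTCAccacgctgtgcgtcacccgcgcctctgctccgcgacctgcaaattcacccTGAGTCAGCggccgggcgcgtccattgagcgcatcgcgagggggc
Gclm: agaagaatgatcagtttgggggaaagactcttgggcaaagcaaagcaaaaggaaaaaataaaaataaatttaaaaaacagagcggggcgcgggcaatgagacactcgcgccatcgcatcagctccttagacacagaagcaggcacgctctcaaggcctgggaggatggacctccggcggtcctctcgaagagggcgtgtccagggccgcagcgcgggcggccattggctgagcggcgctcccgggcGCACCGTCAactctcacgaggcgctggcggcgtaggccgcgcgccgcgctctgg
Gclc: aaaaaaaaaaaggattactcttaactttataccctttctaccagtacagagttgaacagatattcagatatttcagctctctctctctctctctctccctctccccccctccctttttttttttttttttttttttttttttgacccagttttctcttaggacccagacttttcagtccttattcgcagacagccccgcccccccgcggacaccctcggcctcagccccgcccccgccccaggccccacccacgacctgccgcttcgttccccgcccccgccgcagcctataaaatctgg
In Txnrd1 the capitals mark TGACNNNGC on the other strand, 65 to 57 bases before the start, and in Gclm the same core 54 to 46 bases before it. Srxn1 held TGAGNNNGC at 158 to 150 bases and at 45 to 37 bases, and TGACTCA at 102 to 96 and at 45 to 39 bases, so the copy nearest to the start was both. No match was found in the Gclc window. Only the 300 bases before each start were searched, so a window without a match does not show that the gene lacks an element elsewhere. Across the 10 genes, TGACNNNGC was found in Gclm, Txnrd1 and Sod1, against 11.2% of 21756 protein-coding genes with a window of this length. TGAGNNNGC, searched after the first core had been seen, was found in Hmox1 and Srxn1, against 15.9%, and TGACTCA in Srxn1, against 4.74%. An element core overlapping an AP-1 site was found in Srxn1 and in 0.671% of the windows. The windows of Nqo1, Sod2, Sod3 and Cat held none of the 3.

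In ECs, Txnrd1, Srxn1 and Gclc were 2.23-fold to 3.11-fold higher after infarction and reperfusion than in Sham, and Sod3 was 2.93-fold higher. Sod1, Sod2, Gclm and Cat were not called. Of the 8 genes that passed the count filter in ECs, 4 were called, all higher, while 6.56% of the 10438 genes tested were called and 4.09% were called higher. The median log2 change of the 8 was 0.88 against -0.02 for all genes. In each of the 4 called genes every Control-AMI library exceeded every Sham library, which 5.78% of genes did. Hmox1 and Nqo1 did not pass the filter in ECs.

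Txnrd1 (ENSMUSG00000020250, chr10:82669785-82733546) encodes cytosolic thioredoxin reductase, which keeps thioredoxin reduced with NADPH. Its level in the EC libraries was 90.3, 51.8, 60.3 and 58.997 CPM in Sham, 117, 315, 167 and 212 in Control-AMI and 115, 299, 171, 262 and 163 in EMPA-Pre-AMI, in replicate order. The lowest infarcted library, at 115 CPM, lay above the highest Sham library, at 90.3. The means were 65.4 ± 17.0 (SD, n = 4) in Sham and 203 ± 84.2 (n = 4) in Control-AMI, a log2 change of 1.63 ± 0.34 (SE, edgeR FDR = 0.0126). The call held when any 1 library was left out.

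Srxn1 (ENSMUSG00000032802, chr2:151947436-151957687) encodes sulfiredoxin, which restores peroxiredoxins that peroxide has over-oxidised. It measured 21.2, 10.9, 17.03 and 25.7 CPM in Sham ECs and 38.6, 57.8, 62.8 and 59.8 in Control-AMI ECs, without overlap. The log2 change was 1.56 ± 0.43 (edgeR FDR = 0.0427). The call was lost on leaving out Sham replicate 1, 2, 3 or 4, EMPA-Pre-AMI replicate 5 or Control-AMI replicate 2, 3 or 4 (log2 1.37 to 1.75, FDR 0.0541 to 0.123). Gclc (ENSMUSG00000032350, chr9:77661797-77701770), the catalytic subunit of glutamate-cysteine ligase and the rate-limiting step of glutathione synthesis, measured 31.3, 31.4, 35.5 and 37.5 CPM in Sham and 42.2, 113, 66.8 and 82.2 in Control-AMI. The groups did not overlap, although Control-AMI replicate 1, at 42.2 CPM, was close to the highest Sham library at 37.5. The log2 change was 1.16 ± 0.32 (edgeR FDR = 0.0405), and the call was lost without Sham replicate 1, 2, 3 or 4 or Control-AMI replicate 2, 3 or 4 (log2 0.91 to 1.22, FDR 0.0567 to 0.102). Gclm (ENSMUSG00000028124, chr3:122039126-122065061), the modifier subunit of the same ligase, had means of 49.3 ± 8.12 and 74.8 ± 19.8 CPM and was not called (log2 0.60, FDR = 0.184).

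Transcripts of other cell types were read from the same EC libraries, and their part in these changes was not tested. The 10 fibroblast genes, all detected, summed to 638 to 1650 CPM in Sham, 2229 to 7919 in Control-AMI and 572 to 1145 in EMPA-Pre-AMI, and 7 of the 9 tested rose in Control-AMI. The 10 leukocyte genes summed to 8.76 to 37.8, 37.2 to 682 and 16.8 to 135 CPM, which overlapped, with Adgre1 at 0 in every Sham library and 0 of the 5 tested called. The 6 erythroid genes summed to 15.9 to 177, 236 to 990 and 308 to 1301 CPM, with Slc4a1 at 0 in all 3 groups, and 3 of the 4 tested rose in Control-AMI. The endothelial genes summed to 15278 to 16662 CPM in Sham and 7910 to 10876 in Control-AMI, and 3 of 10 fell. Ordered by the S numbers in their labels, the libraries were split here into 4 runs, a new one starting where the library number fell. The labels do not say what a run is, and the study states that preparation and sequencing were simultaneous for all samples. Control-AMI replicates 1 and 4 were of another run than every other EC library. With those 2 libraries left out, Txnrd1 (log2 1.90, FDR = 0.0222) and Gclc (1.42, FDR = 0.0374) were still called and Srxn1 was not (1.72, FDR = 0.132). With a term for the run, Txnrd1 (1.99, FDR = 0.0307) and Srxn1 (1.99, FDR = 0.00363) were called and Gclc was not (1.45, FDR = 0.0745). Within run 2 alone, Srxn1 was called (1.78, FDR = 0.0083) and Txnrd1 (2.09, FDR = 0.0521) and Gclc (1.38, FDR = 0.061) were not.

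**Figure D1:**
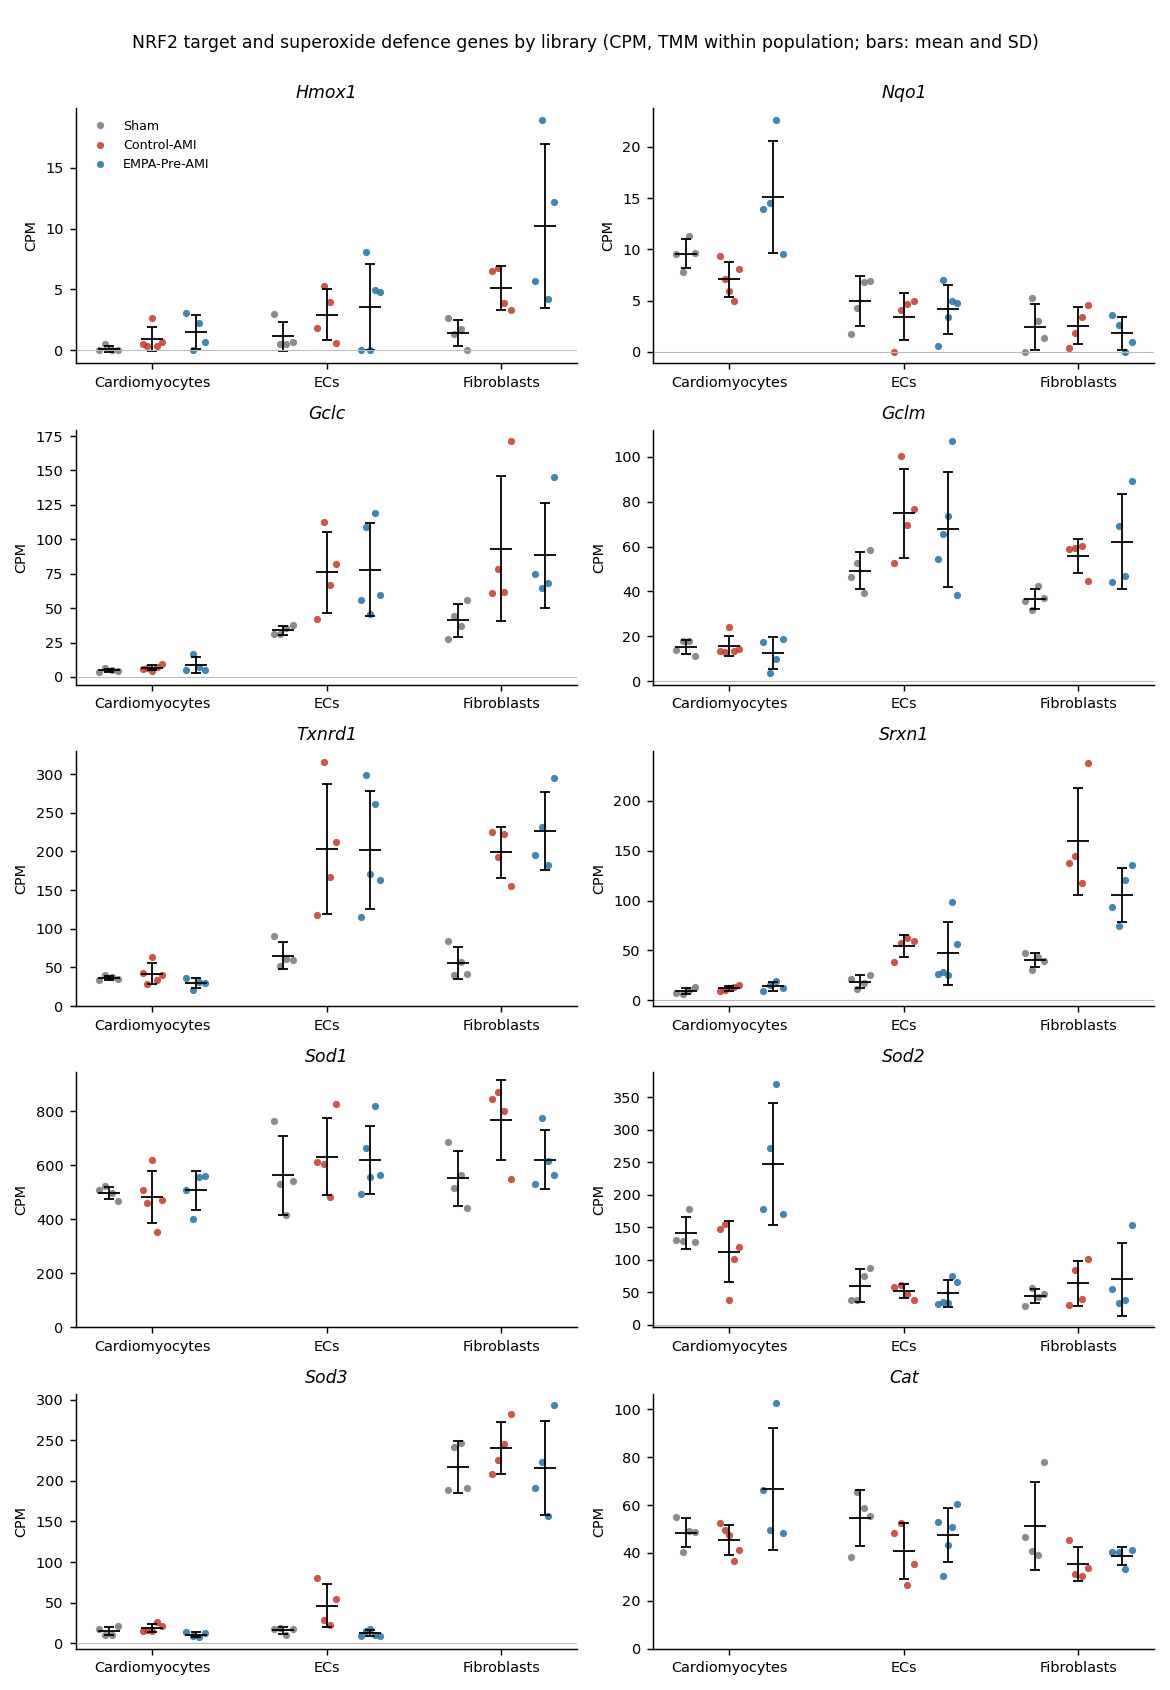
Each panel plots 1 gene, with CPM on the vertical axis and the 9 groups (cardiomyocytes, ECs and fibroblasts in Sham, Control-AMI and EMPA-Pre-AMI) along the horizontal axis; points are libraries and bars are means ± SD. In ECs and fibroblasts the infarcted libraries of Txnrd1, at 115 to 315 CPM, sit above all their Sham libraries, at 40.03 to 90.3 CPM, and Sod3 in ECs is high only in Control-AMI.

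In fibroblasts, Txnrd1 was 3.58-fold and Srxn1 3.96-fold higher in Control-AMI than in Sham. Both were called, 2 of the 9 genes that passed the filter, while 4.16% of 10691 genes were called and 2.99% were called higher. Hmox1, Gclc and Gclm were also higher in every Control-AMI library than in any Sham library, giving 5 genes without overlap against 6.63% of all genes, but they were not called. The median log2 change of the 9 genes was 0.60 against -0.03 for all genes. Nqo1 did not pass the filter and lay between 0 and 5.28 CPM in all fibroblast libraries.

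Fibroblast Txnrd1 was 83.7, 40.03, 57.2 and 40.98 CPM in Sham and 225, 193, 223 and 155 in Control-AMI. The lowest infarcted library, at 155 CPM, lay far above the highest Sham library, at 83.7. The log2 change was 1.84 ± 0.24 (edgeR FDR = 0.000344). Srxn1 was 47.7, 30.8, 42.9 and 39.6 CPM in Sham and 138, 145, 117 and 238 in Control-AMI, again far apart, with a log2 change of 1.98 ± 0.25 (FDR = 0.00023). Both calls held under every alternative fit tried, a run term among them, and without any 1 library. The groups were unevenly placed over the runs of S numbers. Sham had 3 libraries in run 1 and 1 in run 4, and Control-AMI had 1 and 3. Transcripts of other cell types were read here too, and their part was not tested. The 6 erythroid genes summed to 61.9 to 88.0 CPM in Sham and 138 to 743 in Control-AMI with Slc4a1 at 0 in both, and 0 of 4 tested were called. The 10 endothelial genes summed to 142 to 718 and 257 to 906 CPM (0 of 10 called). The 10 leukocyte genes summed to 9.90 to 528 and 17.4 to 30.4 CPM (0 of 3 called). The 10 mural genes, of cells around vessels, summed to 1097 to 3056 and 951 to 6334 CPM. Of these 1 of 10 was called higher, where 2.99% of all genes were.

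Fibroblast Gclc was 27.8, 43.99, 37.3 and 56.01 CPM in Sham and 61.3, 78.1, 61.5 and 171 in Control-AMI. Replicate 4 stood apart at 171 CPM, and the other 3 Control-AMI libraries lay between 61.3 and 78.1. The log2 change of 1.17 ± 0.36 was not called (edgeR FDR = 0.0838). It was called by DESeq2 (1.19, FDR = 0.022), with a term for the run of S numbers (1.62, FDR = 3.62e-05) and without EMPA-Pre-AMI replicate 4 (1.17, FDR = 0.0449). Gclm went from 36.7 ± 4.47 to 55.7 ± 7.52 CPM (log2 0.60, FDR = 0.153). Hmox1 (ENSMUSG00000005413, chr8:75820241-75827217) encodes heme oxygenase 1, which breaks heme down to biliverdin, iron and carbon monoxide. Its levels were 2.63, 1.32, 1.73 and 0 CPM in Sham, 6.52, 6.76, 3.88 and 3.29 in Control-AMI and 5.71, 18.9, 4.22 and 12.2 in EMPA-Pre-AMI. Sham libraries were near the level of 3 counts and the infarcted libraries above it, and Control-AMI against Sham gave a log2 change of 1.84 ± 0.69 that was not called (FDR = 0.147).

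In cardiomyocytes none of the 9 genes tested was called between Control-AMI and Sham by edgeR, none had an unadjusted p below 0.05, and DESeq2 called none. Of all 9167 genes tested, 0.0655% were called. The log2 changes ran from -0.42 for Nqo1 to 0.48 for Gclc, with a median of 0.05 against 0.01 for all genes. Txnrd1 was 33.2, 39.8, 36.9 and 35.1 CPM in Sham and 42.3, 29.1, 63.7, 33.3 and 40.04 in Control-AMI, which overlapped (log2 0.20 ± 0.22, FDR = 1). Hmox1 did not pass the filter and lay between 0 and 3.09 CPM.

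The difference in effect between populations was tested in 1 edgeR model of all 38 libraries and 12085 genes. The model had no term for the run of S numbers. Cardiomyocyte Sham and Control-AMI libraries were all of run 4, while those of ECs and fibroblasts were spread over several runs. For Txnrd1 the log2 change with infarction was 1.66 in ECs, 1.85 in fibroblasts and 0.20 in cardiomyocytes, and it differed between ECs and cardiomyocytes by 1.47 ± 0.39 (FDR = 0.043) and between fibroblasts and cardiomyocytes by 1.66 ± 0.39 (FDR = 0.0426). Between ECs and fibroblasts the Txnrd1 effects differed by -0.19 ± 0.40 (FDR = 0.938). These were the only calls among the 10 genes in the comparisons with cardiomyocytes, where 1.51% (ECs) and 0.331% (fibroblasts) of all genes were called. The Srxn1 difference between fibroblasts and cardiomyocytes was 1.62 ± 0.46 and was not called (FDR = 0.141). Without EC Control-AMI replicate 3, Sod3 was also called between ECs and cardiomyocytes (1.46, FDR = 0.0447, against 1.24 and 0.163 with it). Both Txnrd1 calls were close to the threshold. The EC call was lost without cardiomyocyte Sham replicate 1, 2, 3 or 4, cardiomyocyte Control-AMI replicate 1, 2, 4 or 5, EC Sham replicate 2, 3 or 4 or EC Control-AMI replicate 2 or 4 (log2 1.17 to 1.502, FDR 0.0629 to 0.137). The fibroblast call was lost without cardiomyocyte Sham replicate 1, 2, 3 or 4, cardiomyocyte Control-AMI replicate 1, 2, 4 or 5, fibroblast Sham replicate 2, 3 or 4 or fibroblast Control-AMI replicate 1, 2, 3 or 4 (log2 1.53 to 1.76, FDR 0.054 to 0.126).

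**Figure D2:**
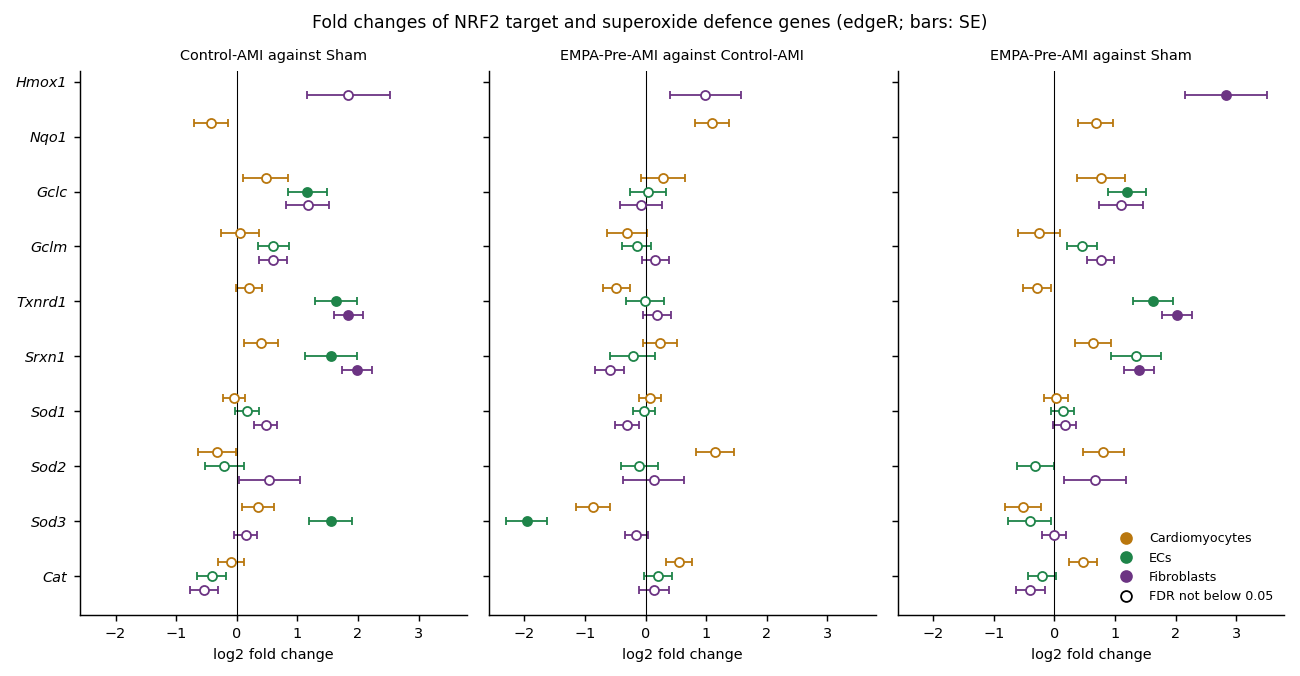
Log2 fold changes (points) ± SE (bars) from edgeR for the genes that passed the count filter, with 1 panel for each pair of groups and 1 colour for each population; filled points have an FDR below 0.05. Txnrd1 lies at 1.63 in ECs and 1.84 in fibroblasts after infarction and at 0.20 in cardiomyocytes, and the EMPA change of Sod3 in ECs lies at -1.96.

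Sod3 (ENSMUSG00000072941, chr5:52521070-52528883), extracellular superoxide dismutase, was the 1 gene of the 10 called between EMPA-Pre-AMI and Control-AMI in ECs, where 2.63% of genes were called. The study itself chose Sod3 from these libraries for follow-up, so its direction here is not independent evidence. EC libraries held 17.7, 19.02, 9.73 and 17.4 CPM in Sham, 80.3, 28.01, 22.7 and 54.2 in Control-AMI and 9.15, 14.6, 16.96, 10.5 and 8.38 in EMPA-Pre-AMI. Every Control-AMI library lay above all the others, and Control-AMI replicates 1 and 4 were the highest. The means were 15.9 ± 4.21 in Sham (n = 4), 46.3 ± 26.5 in Control-AMI (n = 4) and 11.9 ± 3.70 in EMPA-Pre-AMI (n = 5). Control-AMI exceeded Sham by 1.55 ± 0.35 on the log2 scale (edgeR FDR = 0.0101) and EMPA-Pre-AMI lay below Control-AMI by 3.89-fold (log2 -1.96 ± 0.34, FDR = 0.00329). EMPA-Pre-AMI and Sham differed by -0.41 ± 0.36 (FDR = 0.657).

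Fibroblast transcripts moved with Sod3. The 10 fibroblast genes of the marker list summed, in replicate order, to 7919, 2229, 2402 and 4397 CPM in the Control-AMI ECs, against 572 to 1145 in EMPA-Pre-AMI, where 8 of the 9 tested fell. Per 1000 CPM of that sum, Sod3 measured 11.5 to 20.9 CPM in Sham ECs, 9.46 to 12.6 in Control-AMI ECs and 11.3 to 27.5 in EMPA-Pre-AMI ECs, and 7.50 to 13.9 in all fibroblast libraries. On that scale Control-AMI ECs were not above the other EC groups, and their range lay within that of fibroblasts. Other lists also differed between EMPA-Pre-AMI and Control-AMI ECs, where 2.63% of all genes were called. Of the cardiomyocyte genes 8 of 8 tested were lower in sign (1 called), and of the endothelial genes 9 of 10 were higher (2 called). Leukocyte (5 of 5), erythroid (4 of 4) and mural genes (7 of 10) were lower in sign, with 0 called. The part of fibroblast or other transcripts in the Sod3 changes was not tested. Control-AMI replicates 1 and 4 had the highest fibroblast sums and were also of another run, so these cannot be told apart. With the run of S numbers as a term the EC changes of Sod3 were 0.62 (FDR = 0.428) and -1.02 (FDR = 0.498), within run 2 alone 0.74 (FDR = 0.392) and -0.92 (FDR = 0.94), and without Control-AMI replicates 1 and 4, chosen after seeing the data, 0.69 (FDR = 0.425) and -1.11 (FDR = 0.34). Without Control-AMI replicate 1 alone the change with infarction was 1.15 and was no longer called (FDR = 0.0589).

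**Figure D3:**
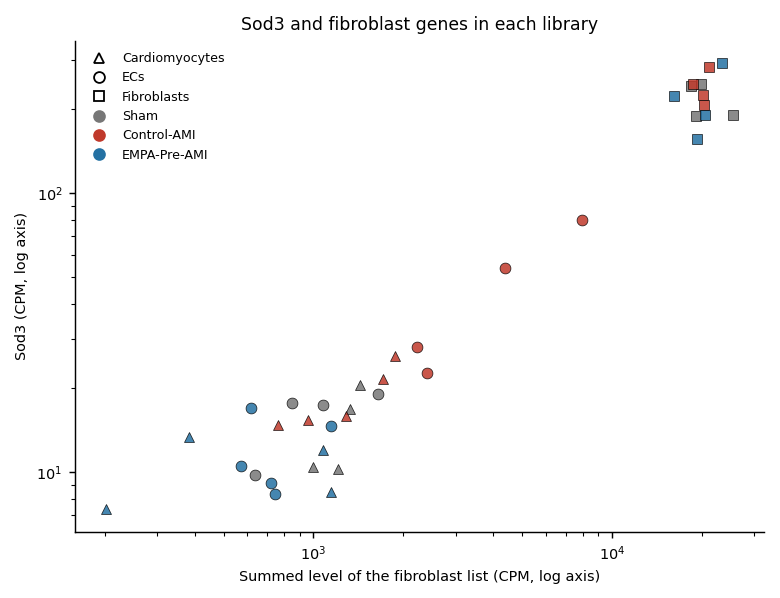
Sod3 CPM on the vertical axis is plotted against the summed CPM of 10 fibroblast genes on the horizontal axis, both logarithmic, with 1 point for each of the 38 libraries, coloured by group and shaped by population. The EC Control-AMI libraries, at 2229 to 7919 CPM of fibroblast genes and 22.7 to 80.3 CPM of Sod3, lie between the other EC libraries and the fibroblasts.

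In fibroblasts Sod3 was higher than in ECs throughout and its groups overlapped, at 189, 242, 247 and 191 CPM in Sham, 208, 226, 246 and 283 in Control-AMI and 191, 224, 157 and 293 in EMPA-Pre-AMI. The log2 changes were 0.15 ± 0.19 with infarction (edgeR FDR = 0.721) and -0.15 ± 0.19 with EMPA (FDR = 1). In the model of all libraries, the Sod3 effect of infarction was larger in ECs than in fibroblasts by 1.42 ± 0.40 (FDR = 0.0382) and that of EMPA lower by 1.83 (log2 -1.83 ± 0.39, FDR = 0.00443), each the single call among the 10 genes where 3.22% and 2.04% of genes were called. Both rest on the EC libraries described above. Without EC Control-AMI replicate 1 they were 1.00 (FDR = 0.255) and -1.41 (FDR = 0.0608). The first was also lost without EC Sham replicate 1, 3 or 4, EC Control-AMI replicate 4, fibroblast Sham replicate 2 or 3 or fibroblast Control-AMI replicate 1, 2 or 3 (log2 1.23 to 1.46, FDR 0.0591 to 0.129). No gene of the 10 was called for a difference in EMPA effect between ECs and cardiomyocytes or between fibroblasts and cardiomyocytes, where 0.993% and 0.00827% of genes were called. Among the 10 genes, Sod2 (-1.22 ± 0.58) and Sod3 (-1.08 ± 0.42) had an unadjusted p below 0.05 in the first of these and none had in the second.

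Txnrd1, Srxn1, Gclc and Gclm were not called between EMPA-Pre-AMI and Control-AMI in ECs or fibroblasts. In ECs the log2 differences were -0.01 ± 0.31 for Txnrd1, 0.04 ± 0.29 for Gclc, -0.14 ± 0.24 for Gclm and -0.21 ± 0.38 for Srxn1 (edgeR FDR 0.899 to 0.998), with a median over the 8 genes of -0.07 against 0.02 for all genes. Of the EMPA-Pre-AMI ECs, Srxn1 was 26.4, 28.7, 25.4, 98.9 and 56.9 CPM, spread from the Sham range to above the highest Control-AMI library. Gclc was 55.98, 109, 45.8, 119 and 59.2 CPM, above every Sham library. Against Sham, EMPA-Pre-AMI ECs had higher Txnrd1 (202 ± 76.0 CPM, n = 5, log2 1.63 ± 0.33, FDR = 0.017) and Gclc (77.9 ± 33.7 CPM, log2 1.199 ± 0.31, FDR = 0.0462), 2 of 8 genes where 2.71% of genes were called and 2.08% were called higher, and a median of 0.30 against -0.01. Srxn1 missed the threshold (1.35 ± 0.41, FDR = 0.114). The Txnrd1 call was lost without Sham replicate 2, 3 or 4 (log2 1.52 to 1.58, FDR 0.0657 to 0.0708), and that of Gclc without Sham replicate 1, 2, 3 or 4, EMPA-Pre-AMI replicate 2 or 4 or Control-AMI replicate 3 or 4 (log2 1.00 to 1.24, FDR 0.067 to 0.145).

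In fibroblasts 0% of all genes were called between EMPA-Pre-AMI and Control-AMI by edgeR, and DESeq2 called none of the 9 genes either. Srxn1 was the 1 gene of the 10 with an unadjusted p below 0.05, at 93.9, 74.2, 120.2 and 135 CPM in EMPA-Pre-AMI, overlapping the Control-AMI libraries at 117 and above (log2 -0.59 ± 0.24, FDR = 1). Hmox1 differed by 0.99 ± 0.59 in the other direction (FDR = 1). The median of the 9 genes was 0.13 against 0.01 for all genes. Against Sham, EMPA-Pre-AMI fibroblasts had higher Txnrd1 (196, 232, 182 and 295 CPM, 4.07-fold, log2 2.02 ± 0.24, FDR = 0.000155), Srxn1 (2.63-fold, log2 1.39 ± 0.25, FDR = 0.00361) and Hmox1 (log2 2.83 ± 0.68, FDR = 0.023), 3 of 9 genes where 5.11% of genes were called and 3.65% were called higher, and a median of 0.76 against -0.03. Gclm (log2 0.76, FDR = 0.0642) and Gclc (1.10, FDR = 0.0963) were not called. They did not overlap with Sham, but the share of all genes that did so is not given for this comparison. Hmox1 in the EMPA-Pre-AMI fibroblasts ranged from 4.22 to 18.9 CPM and its call was lost without Sham replicate 2 or 3 or EMPA-Pre-AMI replicate 2 or 4 (log2 2.36 to 2.94, FDR 0.0543 to 0.0946). Gclc was called by DESeq2 (1.11, FDR = 0.0351), with a term for the run of S numbers (1.55, FDR = 6.33e-05), in a fit of the 2 groups alone (1.10, FDR = 0.0474) and without Control-AMI replicate 4 (1.10, FDR = 0.0211). Gclm was called by DESeq2 (0.77, FDR = 0.0324), with the run term (0.93, FDR = 0.0144) and without Control-AMI replicate 4 (0.77, FDR = 0.0483) or EMPA-Pre-AMI replicate 1 (0.90, FDR = 0.0359).

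In cardiomyocytes none of the 9 genes was called by edgeR between EMPA-Pre-AMI and Control-AMI at an FDR of 0.05, where 0.0218% of all genes were called. An unadjusted p below 0.05 was reached by 5 of the 9, but the share of all genes at that p was not taken. That count is therefore not a result about these genes. DESeq2, which called far more of all genes than edgeR here, called Nqo1 (log2 1.11, FDR = 0.0134) and Sod2 (1.15, FDR = 0.0139). At the FDR of 0.1 that the study used in this comparison, Nqo1, Sod2 and Sod3 passed, 3 of 9 genes where 10.7% of all genes passed. The median log2 difference was 0.24 against -0.01 for all genes. Nqo1 (ENSMUSG00000003849, chr8:108113835-108129934) encodes a quinone reductase that avoids semiquinone formation. It was 9.57, 7.77, 11.3 and 9.66 CPM in Sham, 9.33, 7.11, 5.91, 4.9997 and 8.07 in Control-AMI and 13.9, 14.5, 22.6 and 9.50 in EMPA-Pre-AMI, and every EMPA-Pre-AMI library lay above every Control-AMI library (log2 1.10 ± 0.28, edgeR FDR = 0.0571). Sod2 (ENSMUSG00000006818, chr17:13224095-13259591), the manganese enzyme of the mitochondrial matrix, was 131, 129, 178 and 128, 148, 155, 37.8, 102 and 119 and 179, 272, 371 and 169.6 CPM in the same groups. Control-AMI replicate 3 was the lowest at 37.8, and the EMPA-Pre-AMI libraries lay above all Control-AMI libraries (2.21-fold, log2 1.14 ± 0.31, FDR = 0.0592). Sod3 was lower in EMPA-Pre-AMI, at 13.4, 8.47, 7.36 and 11.96 CPM against 15.4, 15.9, 14.8, 25.999 and 21.6 in Control-AMI (log2 -0.87 ± 0.28, FDR = 0.0828). The share of all genes without overlap is not given for this comparison, so the separation of these genes is a description only.

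All cardiomyocyte Sham and Control-AMI libraries were of run 4 of the S numbers, and of EMPA-Pre-AMI only replicate 4 was. Within run 4, that library had 9.50 CPM of Nqo1 against 5.00 to 9.33 in Control-AMI, 170 of Sod2 against 37.8 to 155, and 12.0 of Sod3 against 14.8 to 25.999. With the run as a term the differences were 0.41 for Nqo1, 0.60 for Sod2 and -0.64 for Sod3 (edgeR FDR = 0.999 each). At the FDR of 0.1, Nqo1 was lost without EMPA-Pre-AMI replicate 3 or Control-AMI replicate 4 or 5 (log2 0.80 to 1.17, FDR 0.108 to 0.2), Sod2 without these or EMPA-Pre-AMI replicate 2 (0.88 to 1.18, FDR 0.114 to 0.207), and Sod3 without any 1 Sham library, EMPA-Pre-AMI replicate 2 or 3 or Control-AMI replicate 2, 4 or 5 (-0.89 to -0.71, FDR 0.101 to 0.258). At 0.05, leaving out EMPA-Pre-AMI replicate 4 gave calls for Nqo1 (1.28, FDR = 0.006), Sod2 (1.29, FDR = 0.0142), Sod3 (-0.97, FDR = 0.0446) and Cat (0.69, FDR = 0.037), and leaving out replicate 1 gave calls for Nqo1 (1.14, FDR = 0.0456) and Sod2 (1.27, FDR = 0.046). Over all genes, 1498 and 326 were called in these fits, against 2 with every library. The 10 fibroblast genes summed to 760 to 1878 CPM in Control-AMI cardiomyocytes and 203 to 1142 in EMPA-Pre-AMI, and all 9 tested were lower in sign with 1 past an FDR of 0.1. The 10 endothelial genes summed to 685 to 1277 and 585 to 1561 CPM, with 8 lower in sign and 2 of them past 0.1, and the 9 cardiomyocyte genes to 22304 to 48235 and 34731 to 50090 CPM, with 7 higher in sign and 1 of them past 0.1. The part of these lists in the differences of Nqo1, Sod2 and Sod3 was not tested. Sod3 per 1000 CPM of that sum was 12.3 to 19.5 in Control-AMI and 7.42 to 36.3 in EMPA-Pre-AMI. Against Sham, EMPA-Pre-AMI cardiomyocytes gave no call among the 9 genes where 0.338% of genes were called. Unadjusted p was below 0.05 for Nqo1 (log2 0.68, FDR = 0.22), Sod2 (0.81, FDR = 0.216) and Srxn1 (0.64, FDR = 0.253). The share of all genes at that p was not taken. The median was 0.47 against 0.00.

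Sod1 (ENSMUSG00000022982, chr16:90017408-90027657), the copper-zinc enzyme of the cytosol, and Cat (ENSMUSG00000027187, chr2:103284194-103316185), the peroxisomal catalase, were not called in any comparison of groups within a population. The cardiomyocyte libraries ranged from 352 to 620 CPM of Sod1, the EC libraries from 415 to 826 and the fibroblast libraries from 441 to 873, and its largest log2 change was 0.48 ± 0.19 in Control-AMI fibroblasts (edgeR FDR = 0.177). Cat was 54.6 ± 11.6 CPM in Sham and 40.8 ± 11.9 in Control-AMI ECs (log2 -0.41 ± 0.24, FDR = 0.368), 51.2 ± 18.3 and 35.3 ± 7.04 in fibroblasts (-0.54 ± 0.24, FDR = 0.222) and 48.4 ± 6.02 and 45.5 ± 6.38 in cardiomyocytes (-0.09 ± 0.21, FDR = 1). In EMPA-Pre-AMI cardiomyocytes Cat was 66.4, 49.6, 103 and 48.2 CPM, of which replicate 3 was the highest (log2 against Control-AMI 0.56 ± 0.21, FDR = 0.12). Sod2 changed by -0.21 ± 0.32 in ECs (FDR = 0.784) and 0.54 ± 0.51 in fibroblasts (FDR = 0.611) after infarction, and its fibroblast level ran from 30.3 to 101 CPM within Control-AMI alone. Hmox1 in ECs was 2.95, 0.475, 0.487 and 0.694 CPM in Sham, 1.81, 5.25, 4.01 and 0.623 in Control-AMI and 0, 8.11, 0, 4.94 and 4.79 in EMPA-Pre-AMI, which overlapped, and it did not pass the filter and was not tested there.

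The Sham libraries were compared for the distribution of the genes between the populations. By S number, the 4 cardiomyocyte Sham libraries were of run 4. Those of ECs were of runs 2 (3 libraries) and 3 (1), and those of fibroblasts of runs 1 (3) and 4 (1). ECs thus shared no run with the other populations, and population and run cannot be told apart there. Fibroblasts shared run 4 with cardiomyocytes through 1 library. No run term was fitted here. For these comparisons CPM were scaled by TMM over all 38 libraries. Sod3 was a fibroblast transcript here, at 128, 162, 168 and 129 CPM in fibroblasts, 38.6, 23.5, 23.5 and 46.5 in cardiomyocytes and 10.9, 12.2, 6.13 and 10.9 in ECs. The 3 populations did not overlap on this scaling (the order of ECs and cardiomyocytes reversed with library totals), and fibroblasts exceeded ECs by 14.6-fold (log2 difference ECs against fibroblasts -3.87 ± 0.31, edgeR FDR = 7.18e-13) and cardiomyocytes by 4.43-fold (log2 2.15 ± 0.29, FDR = 5.23e-08). Sod2 was highest in cardiomyocytes, at 299, 291, 407 and 289 CPM against 23.4, 24.4, 47.2 and 54.7 in ECs and 19.9, 37.7, 28.9 and 32.3 in fibroblasts. ECs and fibroblasts overlapped (log2 0.33 ± 0.44, FDR = 0.607), and cardiomyocytes exceeded them by 8.60-fold (FDR = 1e-06) and 10.8-fold (FDR = 2.62e-07). Nqo1 had the same order of populations, at 21.7 ± 3.39 CPM in cardiomyocytes, 3.12 ± 1.54 in ECs and 1.63 ± 1.52 in fibroblasts, and the last pair did not differ beyond their spread (FDR = 0.282). Gclc was lowest in cardiomyocytes, at 10.9 ± 2.78 CPM against 21.3 ± 1.92 in ECs (log2 0.97 ± 0.40, FDR = 0.0381) and 27.9 ± 7.93 in fibroblasts (1.35 ± 0.39, FDR = 0.004). The EC call was lost without cardiomyocyte Sham replicate 1, 3 or 4 or EC Sham replicate 3 or 4 (0.84 to 1.00, FDR 0.0571 to 0.107).

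Srxn1 was 11.7 ± 3.83 CPM in ECs and 27.3 ± 4.99 in fibroblasts (log2 -1.23 ± 0.34, edgeR FDR = 0.00348) and 20.6 ± 7.27 in cardiomyocytes. Cardiomyocytes overlapped both, and ECs lay below them by 0.82 on the log2 scale (-0.82, FDR = 0.0538), which was called without cardiomyocyte Sham replicate 1 or 2 or EC Sham replicate 4 (-0.997 to -0.92, FDR 0.0325 to 0.0485). Hmox1 was 0.274 ± 0.547, 0.718 ± 0.741 and 0.963 ± 0.743 CPM in cardiomyocytes, ECs and fibroblasts, at the level of a few counts. On this scaling Txnrd1, Sod1 and Cat were also higher in cardiomyocytes than in the other populations. Txnrd1 was 82.3 ± 6.06 CPM in cardiomyocytes, 41.002 ± 10.1 in ECs and 37.6 ± 14.0 in fibroblasts, Sod1 was 354 ± 87.7 CPM in ECs and 374 ± 70.9 in fibroblasts against 1061 to 1179 in the cardiomyocyte libraries, and Cat was 110 ± 14.3, 34.4 ± 7.75 and 34.6 ± 12.4 CPM. These 3 directions depended on the scaling, and cardiomyocyte libraries held far more mitochondrially encoded transcripts than the others. With library totals and no scaling factors, the median over all genes was 1.85 for ECs against cardiomyocytes and 1.84 for fibroblasts against cardiomyocytes, where TMM gave 0.04 and 0.09, and Txnrd1, Sod1 and Cat changed sign against cardiomyocytes in both, as did Sod3 and Srxn1 for ECs and Gclm in both. With mitochondrially encoded genes also left out of the totals, these medians were 0.75 and 0.74. Txnrd1, Sod1 and Cat then kept the direction they had with TMM. The lower Nqo1 and Sod2 and the higher Gclc of ECs and fibroblasts, and the higher Sod3 of fibroblasts, kept their direction under each scaling, but with library totals the differences against cardiomyocytes were smaller for Nqo1, at -0.97 in ECs (FDR = 0.14, no longer called) and -2.01 in fibroblasts, and for Sod2, at -1.26 and -1.68. Of the 10 genes, 2 were called between ECs and fibroblasts (37.7% of all genes), 7 between ECs and cardiomyocytes (52.9%) and 7 between fibroblasts and cardiomyocytes (47.3%), counts too small to set apart from these shares.

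**Figure D4:**
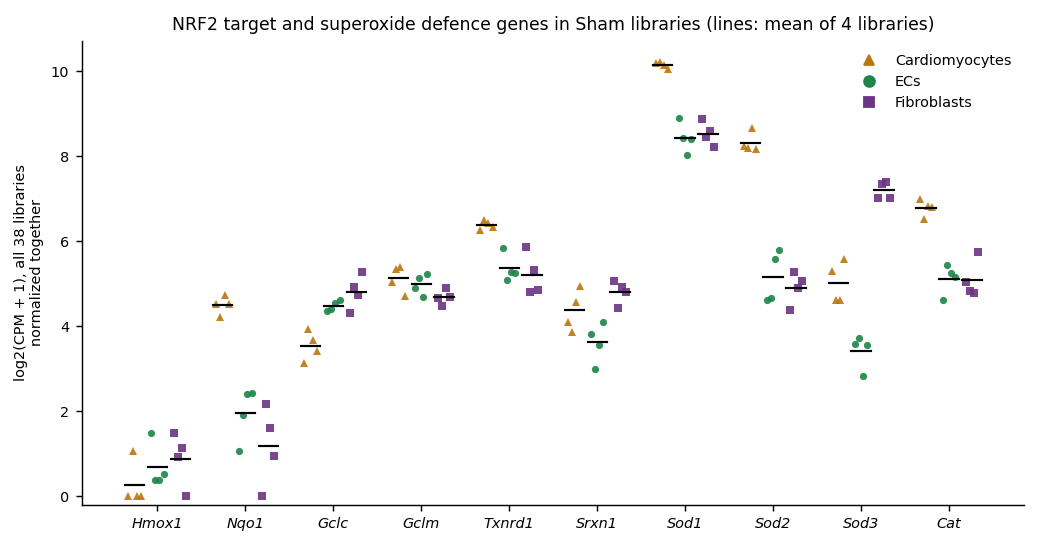
Levels of the 10 genes in the Sham libraries of each population as log2(CPM + 1), scaled by TMM over all 38 libraries, with points for libraries and lines for means of 4 libraries. Sod3 is highest in fibroblasts, at 128 to 168 CPM in fibroblasts and 6.13 to 12.2 in ECs, and Sod2 is highest in cardiomyocytes, at 289 to 407 CPM.

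The regulators of the pathway were read from a list of 10 genes. For this list and those below, calls come from the main fits. They were not repeated with a run term, another fit or a library left out. Nfe2l2 itself was not called in any comparison within a population, at 291 ± 35.7, 358 ± 76.6 and 334 ± 86.8 CPM in Sham, Control-AMI and EMPA-Pre-AMI ECs and 271 ± 58.1, 354 ± 11.3 and 333 ± 81.0 in fibroblasts. Keap1 was not called either, at 166 ± 19.3, 213 ± 57.9 and 222 ± 40.8 CPM in ECs and 117 ± 10.9, 104 ± 20.1 and 116 ± 10.0 in fibroblasts. Bach1 rose in Control-AMI fibroblasts from 31.2 ± 5.49 to 95.0 ± 32.3 CPM (log2 1.61, edgeR FDR = 0.00155) and was not called in ECs (0.17, FDR = 0.768). The small MAF gene Maff rose in both, by 1.11 in ECs (FDR = 0.0127) and 1.52 in fibroblasts (FDR = 0.00765). Sqstm1, whose protein p62 binds KEAP1, rose in ECs by 0.67 (FDR = 0.017), and Mafk rose in fibroblasts by 0.99 (FDR = 0.0261). In all, 2 of 10 regulators rose in ECs and 3 of 10 in fibroblasts with infarction, none fell, and none was called in cardiomyocytes, where 4.09%, 2.99% and 0.0655% of all genes were called higher in ECs, higher in fibroblasts and in either direction in cardiomyocytes. Between EMPA-Pre-AMI and Control-AMI, none of the 10 was called at an FDR of 0.05 in any population, and in ECs and fibroblasts none had an unadjusted p below 0.05. EMPA-Pre-AMI against Sham called Maff (1.44, FDR = 0.00167) and Sqstm1 (0.63, FDR = 0.0297) in ECs and Bach1 (1.75, FDR = 0.000699), Maff (1.504, FDR = 0.00806) and Cul3 (0.87, FDR = 0.0419) in fibroblasts, where 2.08% and 3.65% of all genes were called higher.

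Of 20 other NRF2 targets, 1 of 19 tested rose with infarction in ECs, where 4.09% of all genes did. It was Osgin1, an oxidative stress-induced growth inhibitor, which went from 8.08 ± 3.39 to 25.1 ± 9.29 CPM (log2 1.60, edgeR FDR = 0.0115). None of 17 was called in fibroblasts, where 1 had an unadjusted p below 0.05, and none of 15 in cardiomyocytes. With EMPA, 1 of 19 in ECs was called against Control-AMI, the efflux pump gene Abcc4 (0.74, FDR = 0.0389), where 2.63% of all genes were called, and Osgin1 stayed above Sham (1.49, FDR = 0.0227). In cardiomyocytes at an FDR of 0.1, EMPA-Pre-AMI had higher Prdx1 (1.01), Fth1 (0.76) and Taldo1 (0.65) and lower Tkt (-1.63) than Control-AMI, 4 of 15 tested where 10.7% of all genes passed. These encode a peroxiredoxin, the ferritin heavy chain and a pair of enzymes of the pentose phosphate pathway.

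Of 18 genes for peroxide removal, 1 of 15 tested rose in Control-AMI ECs, the secreted glutathione peroxidase Gpx3 (32.8 ± 17.0 to 243 ± 173 CPM, log2 2.90, edgeR FDR = 0.0233), where 4.09% of all genes rose. Gpx3 was lower again in EMPA-Pre-AMI than in Control-AMI (-3.27, FDR = 0.017), as was Gpx8 (-2.27, FDR = 0.0303), and Txnip, which binds and inhibits thioredoxin, was higher (0.75, FDR = 0.0181), 3 of 15 where 2.63% of all genes were called. Gpx3 was at 756 to 1608 CPM in the fibroblast libraries, and in Control-AMI ECs it was, in replicate order, 444, 70.6, 132 and 328 CPM, highest in replicates 1 and 4, which also had the highest fibroblast sums. The part of fibroblast transcripts in the Gpx3 and Gpx8 changes was not tested. None of 17 was called in fibroblasts with infarction (3 at an unadjusted p below 0.05) or with EMPA (none at that p). In cardiomyocytes at an FDR of 0.1 with EMPA, Prdx5 was higher (0.79) and Gpx3 lower (-0.76), 2 of 18 tested, which is near the 10.7% of all genes that passed. Of 8 superoxide sources only 3 passed the filter in each population, and the 1 call with infarction was Xdh, xanthine dehydrogenase, in fibroblasts, where 4.16% of all genes were called (274 ± 55.5 to 510 ± 193 CPM, log2 0.90, FDR = 0.0366). In EMPA-Pre-AMI against Sham, 1 of 15 peroxide genes was called higher in ECs, where 2.08% of all genes were. In fibroblasts 1 of 3 superoxide sources was, against 3.65% of all genes.

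Likeness of pattern was read as Pearson's r of log2 CPM, as a description over libraries that share population and scaling. Over all 38 libraries the genes most like Sod3 were Cxcl14 (r = 0.98), Serpine2 (0.97) and Adamts2 (0.97), and over the 13 EC libraries they were Scrn1 (0.96), Serpine2 (0.95) and Col3a1 (0.95), the last a collagen gene of the fibroblast list. Those most like Sod2 over 38 libraries were Timm8b (0.97), Timm23 (0.96) and Uqcrb (0.96), and over the ECs Fn3krp (0.85), Mfsd10 (0.80) and Lsm11 (0.80). Those most like Hmox1 over 38 libraries were Serpina3f (0.75), Cxcl2 (0.72) and Ddi2 (0.72), with most Hmox1 counts near 0.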

How the data were processed

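QuantSeq 3′ libraries were sequenced by the authors on a NextSeq instrument, trimmed with cutadapt (version 2.8) and quantified with Salmon on GRCm39 (Ensembl annotation). The deposited values are Salmon's estimated counts per gene, not normalised. They were rounded to whole counts here. Symbols came from GENCODE vM39 on GRCm39, where 35401 of 35682 identifiers matched. 3′ reads do not scale with length, and no length correction was made. Tests compared levels within a gene, while CPM were summed over the marker lists and Sod3 was set against such a sum.

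Counts were filtered with filterByExpr (minimum count 10), scaled by TMM and tested with edgeR (version 4.0.16) quasi-likelihood F tests in R (version 4.3.3), in 1 fit per population and in 1 fit of all 38 libraries for comparisons between populations. DESeq2 (version 1.42.0), other scalings, filters, terms for the replicate number and for the run of S numbers, and each library left out were alternatives. The run term was fitted within populations only. The test scripts were tested on simulated data. Labels name the libraries as separate samples of 2 pooled hearts. No 2 libraries agreed within counting error.

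The genes and lists were chosen with earlier results of these data known. Of the other lists, genes past the threshold within a population were named, at most the 4 with the smallest FDR per list and comparison, and Nfe2l2, Keap1 and Bach1 always. For peroxide removal and superoxide sources in EMPA-Pre-AMI against Sham only counts are given. Some genes of these lists were also called between Sham populations and for differences in effect, and those calls are not given. The share of all genes with an unadjusted p below 0.05 was not taken in any comparison. That of genes whose groups did not overlap is given only for Control-AMI against Sham in ECs and fibroblasts. Likeness was ranked for Hmox1, Sod2 and Sod3, and Hmox1 was left out in ECs, where it did not pass the filter.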

Additional observations from a re-analysis of the deposited data

Results flagged for a closer look

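In 90 sets of 4 or 5 libraries, 9 held a library far from the rest by Dixon's criterion, where chance alone gives about 1 in 20. Hmox1 was 0.486 CPM in cardiomyocyte Sham replicate 2 with the other 3 at 0, 2.63 in cardiomyocyte Control-AMI replicate 3 against 0.333 to 0.646, and 2.95 in EC Sham replicate 1 against 0.475 to 0.694, all a few counts. Cardiomyocyte Control-AMI replicate 3 also stood apart in Gclm (24.0 CPM against 12.9 to 14.5), and Sod2 was 178 CPM in cardiomyocyte Sham replicate 3 against 128 to 131. In fibroblasts, replicate 4 stood apart in Gclc in both infarcted groups, at 171 CPM in Control-AMI (61.3 to 78.1 in the others) and 145 in EMPA-Pre-AMI (64.7 to 74.7). Both libraries were of run 1 of the S numbers, and the other Control-AMI and EMPA-Pre-AMI fibroblast libraries were not. Gclm was 44.5 CPM in fibroblast Control-AMI replicate 4 against 59.03 to 60.1, and Cat was 33.2 in fibroblast EMPA-Pre-AMI replicate 3 against 40.5 to 41.3.

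Effects differed between populations, by edgeR at an FDR below 0.05, in 4 cases. With infarction, Sod3 changed more in ECs than in fibroblasts (log2 difference 1.42), and Txnrd1 changed more in ECs (1.47) and in fibroblasts (1.66) than in cardiomyocytes. With EMPA, the Sod3 change of ECs lay below that of fibroblasts (-1.83).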

How the results depend on the processing

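For single genes, 337 of the values under alternative fits kept their direction and side of the threshold, 39 lost the call, 21 gained it and 10 reversed. With 1 library left out, 462 were unchanged in this sense, 91 lost the call, 16 gained it and 0 reversed. The causes were not tested. The 10 reversals all came from library totals without scaling factors, an alternative chosen after seeing the data. ECs against cardiomyocytes then gave 1.69 for Gclm, 0.82 for Txnrd1, 0.97 for Srxn1, 0.14 for Sod1, 0.058 for Sod3 and 0.14 for Cat on the log2 scale, and fibroblasts against cardiomyocytes gave 1.30 for Gclm, 0.63 for Txnrd1, 0.16 for Sod1 and 0.079 for Cat.

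Counts of the 10 genes called moved as follows. The number of all genes called can move with the fit too, and it is given here only for cardiomyocytes with EMPA against Control-AMI. A shift in these counts is therefore not a result about the 10 genes. In ECs with infarction (4 called), 2 were called with a term for the run of S numbers, 1 within run 2, 2 without Control-AMI replicates 1 and 4, 2 with library totals and 2 to 4 with 1 library left out. In ECs with EMPA against Control-AMI (1 called), 0 were called with the run term, within run 2 and without Control-AMI replicates 1 and 4. In ECs with EMPA against Sham (2 called), 1 was called with the run term, 0 within run 2, 1 with library totals and 0 to 2 with 1 library left out. In fibroblasts with EMPA against Sham (3 called), DESeq2 and the run term each gave 5, and leaving out 1 library 2 to 5. In cardiomyocytes with EMPA against Control-AMI, DESeq2 called 2 at an FDR of 0.05, no filter 1, a minimum of 10 counts in every library 1, and leaving out 1 library 0 to 4. At 0.1 (3 called), the replicate block, the run term and a fit of the 2 groups alone each gave 0, and leaving out 1 library 0 to 4. Over all genes at 0.05 this comparison gave 2 calls by edgeR and 818 by DESeq2. Among differences in effect (1 called each), infarction in ECs against fibroblasts gave 0 with library totals and 0 to 1 with 1 library left out. ECs against cardiomyocytes gave 0 with RLE factors, no filter, library totals or the replicate block and 0 to 2 with 1 library left out. Fibroblasts against cardiomyocytes gave 0 with no filter, library totals or the replicate block and 0 to 1 with 1 library left out. EMPA in ECs against fibroblasts gave 0 to 1 with 1 library left out.

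Replicate numbers were not taken to pair the libraries, since 3 of 12 same-numbered pairs of cardiomyocyte libraries, 4 of 12 of ECs and 6 of 12 of fibroblasts, not all, correlated over 0.1. Correlations of deviations between same-numbered libraries ran from -0.09 to 0.17 for cardiomyocytes, from -0.06 to 0.21 for ECs and from -0.11 to 0.48 for fibroblasts, where their mean was 0.139 against -0.04 for other pairs. With the replicate number as a block, Gclc was called in fibroblasts with infarction (1.08, FDR = 0.00418) and with EMPA against Sham (1.06, FDR = 0.00454). Hmox1 in ECs and Nqo1 in ECs and fibroblasts did not pass the count filter and were not tested there. With 4 or 5 libraries in each group, an uncalled gene is not shown to be unchanged.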
